A study of Homo sapiens with 5 samples.

Results

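The respiratory chain is the set of inner mitochondrial membrane complexes that pass electrons from NADH and succinate to oxygen and use the resulting proton gradient to make ATP. Complex I oxidizes NADH, complex II oxidizes succinate, complex III passes electrons from ubiquinol to cytochrome c, complex IV reduces oxygen, and complex V is the ATP synthase. Most subunits are encoded in the nucleus, and their mRNAs are often short. The nuclear subunit genes were described here in HCT116, a colorectal carcinoma cell line, after knockdown of ELK4, an ETS family transcription factor that acts with serum response factor at many promoters. Genes were chosen by name alone, as NDUFA, NDUFB, NDUFC, NDUFS and NDUFV genes, SDHA to SDHD, UQCR genes, CYC1, COX4 to COX8 genes and ATP5 genes. The NDUF names had to go on with a number right after that letter, so NDUFAB1 was not taken in. The name rule found 88 genes among 20026, with 37 in complex I, 4 in complex II, 10 in complex III, 17 in complex IV and 20 in complex V.

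RNA-seq of poly(A) RNA was carried out on 5 samples, all HCT116 cells. The pLKO group holds 2 control samples (pLKO_1 and pLKO_2) that carry the pLKO.1 lentiviral vector. The shELK4 group holds 3 stable, puromycin-selected knockdown samples, each with its own hairpin against ELK4 (shELK4_1, shELK4_2 and shELK4_3), so that each hairpin has 1 sample and cannot be told apart from that sample. The vector without a hairpin is the only control, so carrying a hairpin and losing ELK4 go together. All hairpin comparisons share both control samples. The sources do not say whether these lines were pools or clones, nor whether the samples came from separate cultures. The p-values measure the spread between these samples, which may be technical and in the knockdown group also holds differences between hairpins. The fit takes 1 variance per gene for both groups, although their spread was unequal. Over all tested genes the median standard deviation was 0.045 between the controls and 0.14 among the knockdown samples. Levels are given in FPKM, that is fragments scaled to transcript length and to the mapped reads of the sample, a unit that can be compared between genes. Fold changes are on the log2(FPKM + 1) scale.

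ELK4 itself had 8.63 and 7.60 FPKM in the pLKO samples and 3.14, 2.82 and 2.44 FPKM in shELK4_1, shELK4_2 and shELK4_3. Its mean was 34.5% of the control mean (log2 fold change −1.26, standard error 0.12, adjusted p = 0.029 from limma). All 3 knockdown samples were well below both controls. The adjusted p of ELK4 from limma was 0.452 without pLKO_1, 0.3 without pLKO_2, 0.0748 without shELK4_1 and 0.0806 without shELK4_3. Low values came in steps that placed the sequencing depth of the other 4 samples between 0.898 and 0.963 of that of pLKO_1, while the absolute depth is unknown. The epithelial markers EPCAM, CDH1, KRT8, KRT18 and KRT19 were expressed, with a summed level of 2615 to 2655 FPKM in the pLKO samples and 1476 to 1989 FPKM in the knockdown samples over the 8 markers listed. The other 3 of that list, VIL1, CDH17 and LGALS4, were at 0.0827 FPKM or lower throughout. KRT8, KRT18 and KRT19 had an unadjusted p under 0.05 in the lower direction, none of the 5 tested had an adjusted p under 0.05 (0 markers), and the part of this difference in the results was not tested. Summed leukocyte markers stayed at or below 0.529 FPKM, with CD3E at 0, and summed endothelial markers at or below 0.0633 FPKM, with CDH5 and CLDN5 at 0. The 6 fibroblast markers summed to 3.19 to 4.39 FPKM, nearly all of it COL1A1, with DCN at 0 in 4 of the samples. In bulk RNA, fewer cells of a type and less RNA per cell cannot be told apart.

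Of the 88 genes, 80 had a mean of at least 1 FPKM over the samples, and the same 80 were tested. The members on the far side of this limit were isoform genes of restricted tissue use and ATP synthase relatives. COX4I2, COX6A2, COX7A1, COX7B2 and ATP5MGL were listed at 0 in every sample, while their common counterparts COX4I1, COX6A1, COX7A2, COX7B and ATP5MG had means of 72.1, 474, 85.5, 273 and 99.0 FPKM over the 5 samples. COX6B2, the testis isoform of the intermembrane space subunit COX6B1, had 0.172 and 0.399 FPKM in pLKO_1 and pLKO_2, against 0.786, 0.808 and 0.914 in shELK4_1 to shELK4_3. All 3 knockdown samples were above both controls, at a mean of 0.616 FPKM over the 5 samples against 237 FPKM for COX6B1. COX8C, an isoform of COX8A (389 FPKM), was listed at 0 in both controls and at 0.152, 0.322 and 0.159 FPKM in the knockdown samples, of which the second was 2.12 times the first. Fitted with every gene above 0, COX6B2 had an adjusted p of 0.167 and COX8C of 0.219 from limma. ATP5S, an ATP synthase coupling factor that is no subunit of the enzyme, had 0.347 to 0.498 FPKM with overlapping groups. The tested member closest to the limit was NDUFS7, with a mean of 4.25 FPKM, and the untested member closest to it was COX6B2, with 0.616 FPKM.

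The tested genes spanned 4.25 FPKM for NDUFS7 to 641 FPKM for COX7C, with a median of 68.5 FPKM, against a median of 8.51 FPKM over all 10780 tested genes. Complex IV genes had the highest median level, 226 FPKM, followed by complex V with 114 FPKM, complex III with 67.8, complex I with 54.7 and complex II with 49.4. Together the 88 genes took 2.94% and 2.92% of all listed FPKM in the pLKO samples and 2.88%, 2.62% and 2.97% in shELK4_1, shELK4_2 and shELK4_3. The shELK4_2 sample had the lowest share.

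**Figure D1:**
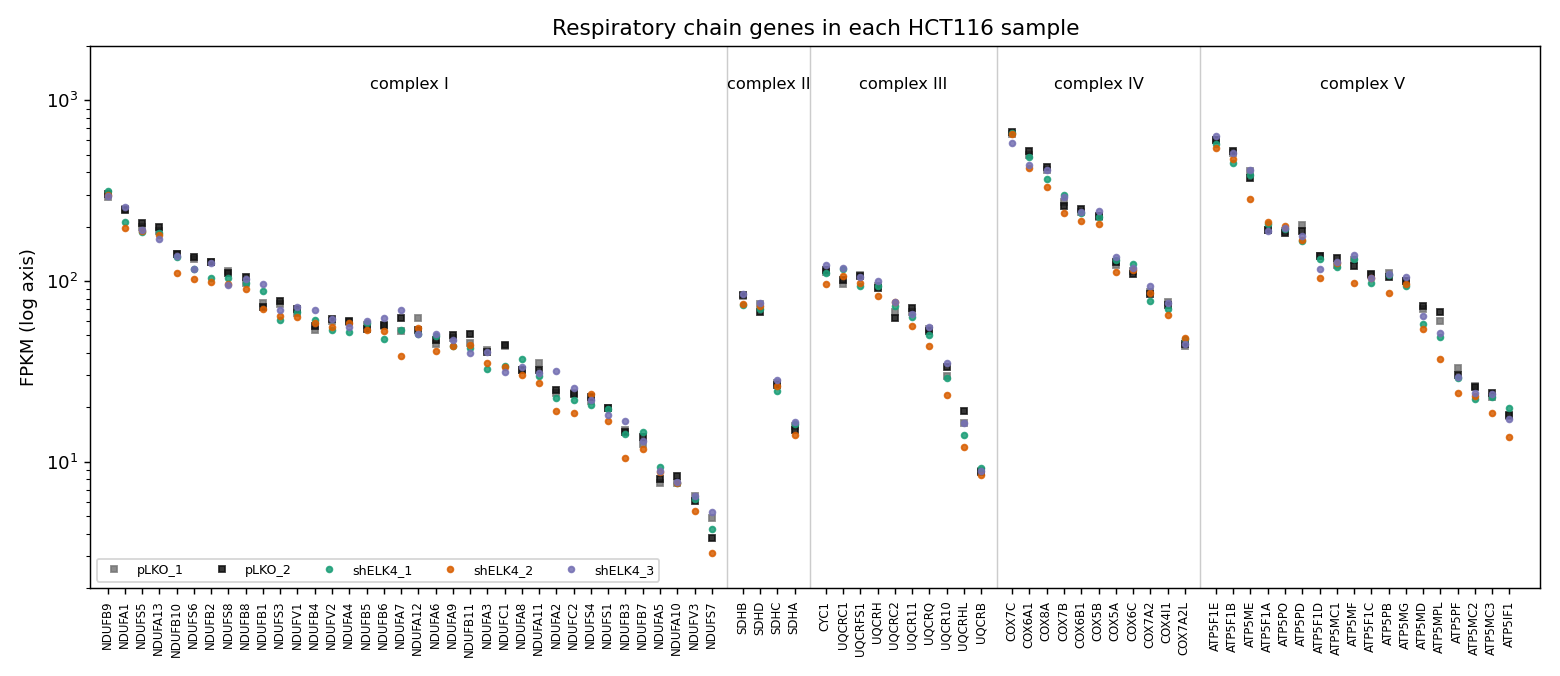
FPKM of the tested respiratory chain genes, all but 1 of the 80, in each of the 5 samples (log axis, genes ordered by mean within each complex; squares are pLKO samples, circles are shELK4 samples). The samples of a gene lie close together compared with the range between genes, from 4.25 FPKM for NDUFS7 to 641 FPKM for COX7C, and shELK4_2 is the lowest sample for many genes.

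After ELK4 knockdown, the mean of most respiratory chain genes lay slightly below that of the controls, but not in every hairpin, and none passed the adjusted test. The log2 fold change was negative for 61 of the 80 and positive for 19 (negative for 5585 of all 10780 tested genes), with a median of −0.097, against −0.0086 over all tested genes. The extremes were −0.48 for ATP5MPL and 0.21 for UQCRC2. No member had an adjusted p under 0.05 (0 of 80; limma with Benjamini-Hochberg adjustment), where 0.167% of all tested genes did. An unadjusted p under 0.05 in the higher direction was reached by 1 of the 80, against 8.08% of all tested genes, and in the lower direction by 6 of the 80 (7.5%), against 8.14%. With quantile normalization the split was 3 higher and 3 lower, and with correction for transcript GC content and length it was 3 higher and 4 lower. In the main fit, with none of these changes, the share of members with an unadjusted p under 0.05 was not above the background in either direction. The 6 lower genes became 11 without shELK4_3, and the 1 higher gene became 3 without shELK4_2 and 0 without shELK4_3. Fits without a control leave 1 control sample, and their counts are not given. The shares over all tested genes under these other settings are not given, so their counts cannot be read against a background. The 95% interval of the log2 fold change lay within 1.5-fold for 76 of the 80 members, against 77.1% of all tested genes. NDUFC1, NDUFA7, UQCRHL and ATP5MPL were the 4 whose interval reached further.

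The 3 knockdown samples lay below both controls for 26 of the 80 genes (32.5%), against 21.0% of all tested genes, and above both for 8 of the 80 (10%), against 19.1%. With GC and length correction 15 were below and 10 above (18.8% and 12.5%, against 21.3% and 19.5% of all tested genes), and with quantile normalization 13 were below and 12 above (16.2% and 15%, against 18.8% and 19.3%). Under both of these settings neither share was above that of all tested genes. Median-of-ratios scaling instead gave 30 below and 7 above (37.5% and 8.75%, against 21.2% and 19% of all tested genes). Without shELK4_2, a choice made after seeing the data, 27 lay below (33.8%, against 28.4% of all tested genes) and 17 above (21.2%, against 28.1%). Without shELK4_3, 46 lay below (57.5%, against 29.6%) and 9 above (11.2%, against 25.1%). The 26 genes are spread over complex I (13), complex III (3), complex IV (2) and complex V (8), with none in complex II.

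The hairpins differed from each other. Against the control mean on the log2(FPKM + 1) scale, shELK4_1 had a median difference of −0.069 over the 80 genes, shELK4_2 one of −0.17 and shELK4_3 one of 0.012, while pLKO_2 differed from pLKO_1 by a median of 0.0080. The sample with the shELK4_2 hairpin was lower than the control mean for 67 of the 80, shELK4_1 for 56 and shELK4_3 for 37. Over all 10780 tested genes this held for 5737 in shELK4_2, 5599 in shELK4_1 and 5164 in shELK4_3. By more than 0.322 on the log2(FPKM + 1) scale, lower than the control mean were 21 of the 80 in shELK4_2 (26.2%), against 14.4% of all tested genes, 3 of the 80 in shELK4_1, against 8.66%, and 1 of the 80 in shELK4_3, against 9.49%. Above the control mean by more than 0.322 were none in shELK4_1 (0 of 80, against 9.96% of all tested genes), none in shELK4_2 (0 of 80, against 9.30%) and 2 of the 80 in shELK4_3, against 11.4%. With 1 sample for each hairpin, these differences have no replicate check. Without shELK4_2 the median log2 fold change of the 80 genes was −0.020, against −0.097 with it.

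**Figure D2:**
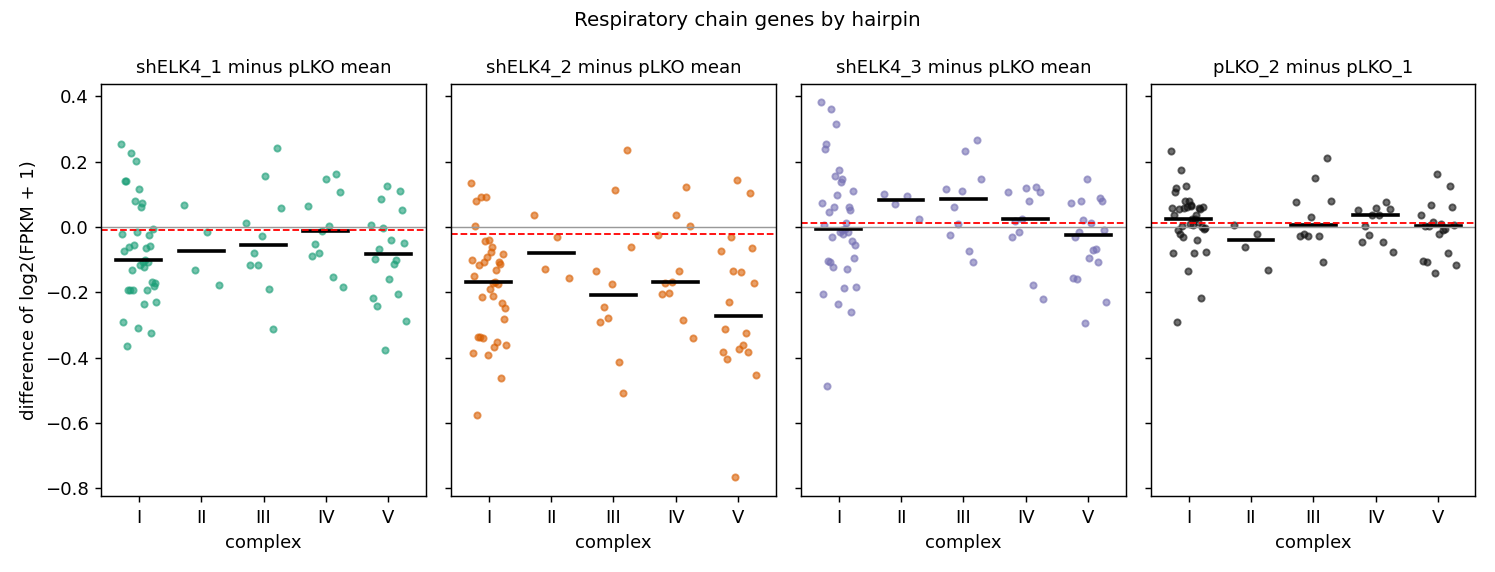
Difference in log2(FPKM + 1) from the mean of both pLKO samples for each tested gene of complexes I to V, in 1 panel per hairpin, with the difference between the 2 controls in the last panel (black bars are medians by complex, the red dashed line is the median over all 10780 tested genes). The complex V genes of shELK4_2 have the lowest median, −0.27, and the shELK4_3 medians lie between −0.023 and 0.086.

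Transcript length moved with this difference. The canonical transcript in GENCODE release 44 was at most 700 bases long for 36 of the 80 genes (45%) but for 2.22% of all tested genes. The gene models behind the deposited values may have other lengths, since the canonical transcript is 3610 bases for ATP5F1E and 8356 bases for NDUFA9, so the length classes and the correction are approximate. Over all 238 tested genes of that length shELK4_1 had a median difference from the control mean of −0.083, shELK4_2 one of −0.17 and shELK4_3 one of −0.0050, and for the 36 respiratory chain genes among them it was −0.11, −0.26 and −0.026. Over the 8107 tested genes of more than 2000 bases the medians were 0.0010, −0.0013 and 0.015. The 17 respiratory chain genes of this length had medians of −0.014 for shELK4_1, −0.135 for shELK4_2 and 0.020 for shELK4_3. Long members thus also had a median below that of long genes in general for shELK4_2. The median of short transcripts in general was thus below 0 by more in shELK4_1 and shELK4_2 than that of long ones. After each sample was corrected for GC content and length, shELK4_1 had a median of −0.028 over the 80 genes, shELK4_2 one of −0.069 and shELK4_3 one of 0.0080, against −0.0075, −0.0053 and −0.0077 over all tested genes. The part of length in the differences of single genes was not tested beyond this correction.

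Complex I, the NADH dehydrogenase, had 37 tested genes, 29 with a negative and 8 with a positive log2 fold change (median −0.11). The median was −0.053 with quantile normalization, −0.056 with GC and length correction and −0.048 without shELK4_2. NDUFC1, a small accessory subunit of the membrane arm, had 43.7 and 44.4 FPKM in the pLKO samples and 34.0, 33.4 and 31.2 FPKM in shELK4_1, shELK4_2 and shELK4_3. The 3 knockdown samples lay close together and well below both controls, at 74.6% of the control mean. The log2 fold change was −0.41 (standard error 0.09, unadjusted p = 0.0023, adjusted p = 0.115 from limma), the lowest p among the 80 genes, and it had an unadjusted p under 0.05 in all 14 alternative settings. NDUFC1 passed the adjusted limit only with a weight for each group (adjusted p = 0.0335 from limma), with adjusted p from 0.0335 to 0.905 over the 14 settings.

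NDUFS6, an accessory subunit of the NADH-oxidizing module that carries a zinc site, had 133 and 135 FPKM in the pLKO samples and 117, 102 and 116 FPKM in the knockdown samples (log2 fold change −0.26, standard error 0.09, unadjusted p = 0.030, adjusted p = 0.255 from limma). NDUFS3, a core subunit of the arm that carries electrons to ubiquinone, had 75.0 and 77.1 FPKM in the pLKO samples and 61.2, 63.9 and 69.5 FPKM in the knockdown samples (log2 fold change −0.23, standard error 0.09, unadjusted p = 0.043, adjusted p = 0.293 from limma). For both genes all knockdown samples lay below both controls, and neither passed after adjustment. With GC and length correction the unadjusted p from limma was 0.0548 for NDUFS6 and 0.11 for NDUFS3. With quantile normalization it was 0.0267 and 0.16.

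Core subunits of complex I hold the flavin, the iron-sulfur clusters and the site of ubiquinone reduction. NDUFV1, which binds NADH and the flavin, had 66.2 and 70.0 FPKM in the pLKO samples and 67.8, 62.9 and 71.7 FPKM in the knockdown samples. The groups overlapped for NDUFV1, NDUFV2 (58.6 FPKM on average) and NDUFS7 (4.25 FPKM). NDUFS1, with 19.8 FPKM in both controls, was at 19.5, 16.7 and 18.1 FPKM in the knockdown samples. NDUFS8, which holds iron-sulfur clusters on the path to ubiquinone, had 113 and 110 FPKM in the pLKO samples and 104, 96.5 and 94.7 FPKM in the knockdown samples (log2 fold change −0.18, standard error 0.09, adjusted p = 0.344 from limma).

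Among the accessory subunits, NDUFB9 was the most abundant complex I transcript, with 292 and 303 FPKM in the pLKO samples and 313, 298 and 296 FPKM in the knockdown samples. Its groups overlapped, and its log2 fold change of 0.02 had a standard error of 0.08. NDUFB1 had the largest positive log2 fold change of the complex, 0.18 (standard error 0.14, adjusted p = 0.56 from limma), but its samples were split. NDUFB1 had 76.0 and 71.9 FPKM in the controls, 88.3 in shELK4_1 and 96.6 in shELK4_3, and only 69.8 FPKM in shELK4_2, and leaving out that sample gave NDUFB1 a value of 0.32 on the log2 scale, with limma's adjusted p at 0.11, against 0.086 without shELK4_3. NDUFA5, an accessory subunit beside the quinone module, was higher in all 3 knockdown samples, with 7.67 and 8.03 FPKM in the pLKO samples and 9.35, 8.71 and 8.85 FPKM after knockdown (log2 fold change 0.17, standard error 0.09, adjusted p = 0.387 from limma). The widest spread within the complex was that of NDUFA7, with 53.0 and 62.5 FPKM in the pLKO samples and 53.3, 38.3 and 68.8 FPKM in shELK4_1, shELK4_2 and shELK4_3. In GENCODE, exons of another gene cover 77.9% of the exonic bases of NDUFA7, so its reads could be split. The same holds for NDUFV2 (90%), NDUFA13 (83.9%), NDUFB8 (72%) and NDUFA11 (68.2%). NDUFA4, named as a complex I gene, is now counted as a subunit of complex IV. It had 59.5 and 60.2 FPKM in the pLKO samples and 52.3, 58.2 and 55.4 FPKM after knockdown.

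Complex II, succinate dehydrogenase, is shared with the citric acid cycle, and none of its 4 genes separated the groups. The flavoprotein SDHA had 15.7 and 15.0 FPKM in the pLKO samples and 16.1, 13.96 and 16.5 FPKM in the knockdown samples. The iron-sulfur protein SDHB had 83.04 and 83.3 FPKM in the pLKO samples and 73.5, 74.6 and 84.6 FPKM after knockdown, lower in 2 of the hairpins and not in the third (log2 fold change −0.10, standard error 0.10, adjusted p = 0.626 from limma), with −0.066 without shELK4_1 and −0.17 without shELK4_3. SDHC and SDHD, which anchor the enzyme in the membrane, had 27.1 and 26.7 against 24.5, 26.3 and 28.3 FPKM, and 74.2 and 67.7 against 70.1, 72.7 and 75.8 FPKM. For SDHD the log2 fold change was 0.04 (standard error 0.09). SDHA shares 73.6% of its 50-base words with other genes, its pseudogenes SDHAP1, SDHAP2 and SDHAP3 among them, so its level is uncertain. The median log2 fold change of the complex, −0.0088, turned to 0.028 with quantile normalization and to 0.034 with GC and length correction.

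Complex III, the cytochrome bc1 complex, held the 2 largest positive log2 fold changes of the 80 genes. UQCRC2 and UQCRC1 encode the paired core proteins on the matrix side, which are related to mitochondrial processing peptidases. UQCRC2 had 67.4 and 62.5 FPKM in the pLKO samples and 72.5, 76.6 and 76.5 FPKM in shELK4_1, shELK4_2 and shELK4_3 (log2 fold change 0.21, standard error 0.09, unadjusted p = 0.047, adjusted p = 0.30 from limma). UQCRC1 had 95.9 and 101 FPKM in the pLKO samples and 117, 107 and 119 FPKM in the knockdown samples (log2 fold change 0.21, standard error 0.09, unadjusted p = 0.056, adjusted p = 0.32 from limma). For both genes every knockdown sample was above both controls, the means being 116% of the control means, and both kept this direction in all 14 alternative settings. UQCRC2 had an unadjusted p under 0.05 in 9 of the 14 settings and UQCRC1 in 7, and neither had an adjusted p under 0.05 in any of them, with a lowest value of 0.196 and 0.128.

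The electron-carrying subunits of complex III were not above the controls in every hairpin. CYC1, which carries the heme of cytochrome c1, had 112 and 115 FPKM in the pLKO samples and 111, 95.7 and 123 FPKM in the knockdown samples, with overlapping groups (log2 fold change −0.05, standard error 0.12). UQCRFS1, the Rieske iron-sulfur protein, had 108.5 and 106.4 FPKM in the pLKO samples and 94.0, 97.8 and 105.6 FPKM after knockdown, where shELK4_3 lay just below the lower control. Among the small subunits, UQCRB varied least, from 8.39 to 9.20 FPKM. UQCRHL, an intronless relative of the hinge protein gene UQCRH, had the largest negative log2 fold change of the complex. Its values were 16.3 and 19.1 FPKM in the pLKO samples and 14.01, 12.1 and 16.3 FPKM in the knockdown samples (log2 fold change −0.31, standard error 0.14, adjusted p = 0.336 from limma), or −0.20 on the log2 scale without pLKO_2. UQCRH itself had 93.6 and 91.9 FPKM in the pLKO samples and 93.6, 82.2 and 101 FPKM after knockdown. UQCRHL shares 53.7% of its 50-base words with UQCRH, so reads could be split between them. The median log2 fold change of the complex was −0.077, and it turned to 0.025 without shELK4_2.

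Complex IV, cytochrome c oxidase, had 11 tested nuclear subunit genes, 7 with a negative and 4 with a positive log2 fold change. None had an unadjusted p under 0.05 from limma (0 of 11). COX7C, the most abundant transcript of all the tested members, had 649.2 and 667 FPKM in the pLKO samples and 659, 647.1 and 581 FPKM in the knockdown samples (log2 fold change −0.07, standard error 0.09). The shELK4_3 sample was the lowest, and shELK4_2 lay just below the lower control. COX6A1, the common isoform of a small subunit, had 499 and 526 FPKM in the pLKO samples and 485, 421 and 440 FPKM after knockdown (log2 fold change −0.19, standard error 0.09, unadjusted p = 0.077, adjusted p = 0.352 from limma). It shares 47.1% of its 50-base words with other genes. COX6C and COX7A2L were the 2 of this complex that lay above both controls in every knockdown sample. COX6C had 113 and 110 FPKM in the pLKO samples and 124, 115 and 118 FPKM in the knockdown samples (log2 fold change 0.09, standard error 0.08), and COX7A2L, which takes part in joining complexes III and IV into supercomplexes, had 43.5 and 44.7 against 47.6, 48.1 and 44.8 FPKM. COX4I1, the common isoform of the regulatory subunit 4, had overlapping groups, with 76.0 and 73.6 against 70.3, 64.8 and 75.9 FPKM. The median of the complex was −0.013, but 0.055 with quantile normalization and 0.050 with GC and length correction.

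**Figure D3:**
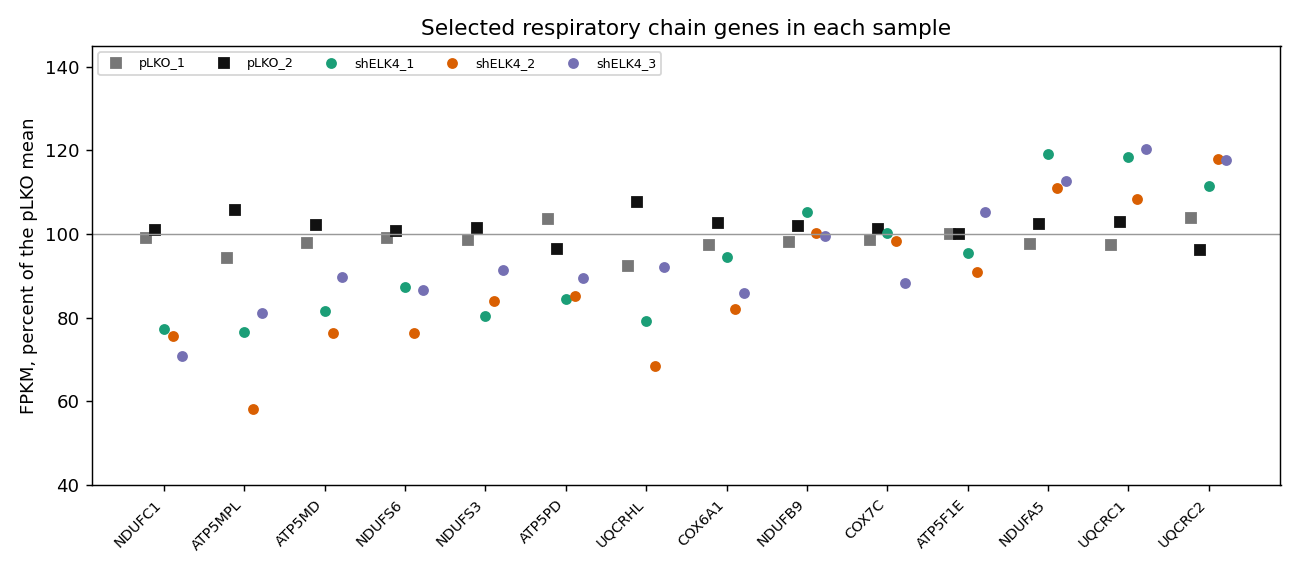
FPKM of 14 respiratory chain genes in each sample as a percent of the pLKO mean (squares are pLKO samples, circles are shELK4 samples). All circles of NDUFC1 lie below both squares, its mean being 74.6% of the control mean, all circles of UQCRC1 and UQCRC2 lie above both, and those of NDUFB9, COX7C and ATP5F1E overlap or straddle the controls.

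Complex V, the ATP synthase, had 18 tested genes, 16 with a negative and 2 with a positive log2 fold change (median −0.11, −0.032 without shELK4_2 and −0.16 without shELK4_3). ATP5MPL, which encodes a small protein that associates with the membrane part of the enzyme, had 60 and 67.3 FPKM in the pLKO samples and 48.7, 37.0 and 51.7 FPKM in shELK4_1, shELK4_2 and shELK4_3. This is 71.9% of the control mean and the largest negative log2 fold change of the 80 genes, −0.48 (standard error 0.16, unadjusted p = 0.019, adjusted p = 0.217 from limma). ATP5MD, which encodes another small membrane protein of the enzyme, had 69.7 and 72.8 FPKM in the pLKO samples and 58.1, 54.4 and 63.9 FPKM in the knockdown samples (log2 fold change −0.27, standard error 0.10, unadjusted p = 0.028, adjusted p = 0.25 from limma). In both genes all knockdown samples lay below both controls, with shELK4_2 the lowest. With GC and length correction the unadjusted p from limma was 0.0176 for ATP5MPL and 0.0345 for ATP5MD. With quantile normalization it was 0.0288 and 0.0632.

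The peripheral stalk holds the head of the ATP synthase still while the rotor turns. Its subunit gene ATP5PD had 204 and 190 FPKM in the pLKO samples and 167, 168 and 176 FPKM in the knockdown samples (log2 fold change −0.21, standard error 0.08, unadjusted p = 0.043, adjusted p = 0.292 from limma). For ATP5PD the unadjusted p from limma was 0.124 with GC and length correction and 0.155 with quantile normalization. Another stalk gene, ATP5PO, was above both controls, with 188 and 185 FPKM in the pLKO samples and 194, 201 and 197 FPKM after knockdown. ATP5PO shares 61.2% of its 50-base words with another gene, so its level is uncertain. ATP5PF was at 32.9 and 30.3 against 29.1, 24.1 and 29.5 FPKM, and ATP5PB at 111 and 105 against 109, 86.2 and 109 FPKM, where only shELK4_2 lay below both controls. Of the 4 stalk genes, ATP5PD and ATP5PF thus lay below both controls in every knockdown sample and ATP5PO above.

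The catalytic head is built from alpha and beta subunits around a central stalk. ATP5F1A, the alpha subunit gene, had 192 and 191 FPKM in the pLKO samples and 206, 211 and 189 FPKM in the knockdown samples (log2 fold change 0.08, standard error 0.09). ATP5F1B, the beta subunit gene, had 514 and 528 FPKM in the pLKO samples and 452, 474 and 509 FPKM in the knockdown samples, all below both controls (log2 fold change −0.12, standard error 0.09). The head contains alpha and beta in equal numbers, and the FPKM of the beta gene was higher than that of the alpha gene in every sample. ATP5F1D had 137 and 138 against 133, 104 and 117 FPKM (log2 fold change −0.23, standard error 0.12, adjusted p = 0.387 from limma, and −0.14 on the log2 scale without shELK4_2), and ATP5F1C had 109 in both controls against 97.3, 103 and 104 FPKM. ATP5F1E, the most abundant transcript of the complex, had 601 and 602 FPKM in the pLKO samples and 574, 547 and 634 FPKM after knockdown, with overlapping groups.

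The c-ring genes ATP5MC1, ATP5MC2 and ATP5MC3 encode different import sequences joined to the same mature ring protein. ATP5MC1 had the highest level, with 122 and 134 FPKM in the pLKO samples and 119, 125 and 127 FPKM after knockdown. ATP5MC2 had 26.1 and 26.0 FPKM in the pLKO samples and 22.3, 23.0 and 24.1 FPKM in the knockdown samples, all below both controls (log2 fold change −0.17, standard error 0.09, adjusted p = 0.386 from limma). ATP5MC3 had 22.9 and 24.0 against 22.8, 18.7 and 23.8 FPKM. ATP5IF1, which inhibits ATP hydrolysis by the enzyme and is no structural subunit, had 18.0 and 18.2 FPKM in the pLKO samples and 19.8, 13.6 and 17.2 FPKM after knockdown.

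Sums over the genes of a complex were lowest in shELK4_2 for all complexes but complex II, where shELK4_1 was lowest. Complex I summed to 2622 and 2675 FPKM in the pLKO samples and 2487, 2340 and 2617 FPKM in shELK4_1, shELK4_2 and shELK4_3. Complex III summed to 654 and 662 FPKM in the pLKO samples and 654, 603 and 705 FPKM after knockdown. For complex V the sums were 3046 and 3011 FPKM against 2866, 2667 and 3032 FPKM. Against the control mean, shELK4_2 was at 88.4% for complex I, 95.5% for complex II, 91.7% for complex III, 89.5% for complex IV and 88.1% for complex V. For complex IV the sums were 2744 and 2799 FPKM against 2724, 2482 and 2680 FPKM. The sums of complexes I and IV lay below both controls in every hairpin, by little in shELK4_3 for complex I, and those of complexes II, III and V did not.

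ETS factors such as ELK4 bind the word CCGGAAGT, and promoters of respiratory chain genes are known for ETS and NRF1 sites. RefSeq promoter windows on GRCh38.p14, from 250 bases before to 50 after a transcription start, were found for 65 of the 80 genes, and a gene with several starts has several windows. The word, on either strand, was in a window of 12 of the 65 genes (18.5%), of 11.1% of the 8801 tested genes with windows, and in 4.14% of all 35116 windows. None of its 13 matches in member windows shared a base with another of the motifs searched (0 of 13). The NRF1 word GCGCANGCG was in windows of 22 of the 65 genes (33.8%, against 18.0% of tested genes and 7.52% of windows). The YY1 word AAGATGGCG was in those of 9 genes (13.8%, against 5.15% and 1.75%), the cyclic AMP response element TGACGTCA in those of 5 genes (7.69%, against 4.01% and 1.85%), and the GC box GGGCGG in those of 43 genes (66.2%, against 79.7% and 45%).

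The median log2 fold change was −0.12 for the 12 members with the ETS word, 10 of them negative, and −0.091 for the 53 without it, 41 of them negative. For the NRF1 word the medians were −0.13 with and −0.073 without, for the GC box −0.11 and −0.037, for the YY1 word −0.073 and −0.10, and for the cyclic AMP response element −0.10 and −0.097. A match is a word in the sequence and says nothing on whether a factor binds there. The 60 upstream bases around the ETS word, in capitals, are shown for ATP5MD and ATP5PD, which had an unadjusted p under 0.05 in the lower direction, and for ATP5F1A, SDHD, COX5B and NDUFS1, which did not reach it. They lie at chr10:103396602-103396661 (minus strand), chr17:75047038-75047097 (minus), chr18:46098312-46098371 (minus), chr11:112086769-112086828 (plus), chr2:97645999-97646058 (plus) and chr2:206159569-206159628 (minus). The word is written as CCGGAAGT or, on the other strand, as ACTTCCGG.
ATP5MD: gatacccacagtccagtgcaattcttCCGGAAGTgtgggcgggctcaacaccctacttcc
ATP5PD: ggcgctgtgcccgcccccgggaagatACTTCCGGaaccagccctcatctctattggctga
ATP5F1A: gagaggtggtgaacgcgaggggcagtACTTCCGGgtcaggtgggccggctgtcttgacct
SDHD: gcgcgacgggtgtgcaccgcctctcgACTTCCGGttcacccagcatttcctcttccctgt
COX5B: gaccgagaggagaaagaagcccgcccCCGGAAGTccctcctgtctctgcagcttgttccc
NDUFS1: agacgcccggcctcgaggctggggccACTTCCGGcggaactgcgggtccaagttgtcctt

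Genes outside the name rule that serve the chain were read in the same way, and none had an adjusted p under 0.05 from limma (0 genes). Of 46 tested assembly factors, 23 had a positive and 23 a negative log2 fold change (median 0.0003). An unadjusted p under 0.05 from limma was reached by SDHAF1, an assembly factor of complex II, in the higher direction (1 of 46, against 8.08% of all tested genes), and by NDUFAF2, NDUFAF1 and BCS1L in the lower direction (3 of 46, against 8.14%). NDUFAF2, a complex I assembly factor, had 27.9 and 27.4 FPKM in the pLKO samples and 23.8, 22.3 and 22.7 FPKM in the knockdown samples (log2 fold change −0.26, standard error 0.08, adjusted p = 0.219 from limma). SDHAF1 had 12.5 and 14.8 FPKM in the pLKO samples and 17.3, 15.8 and 17.7 FPKM after knockdown (log2 fold change 0.29, standard error 0.11, adjusted p = 0.26 from limma). Of 13 citric acid cycle genes, 10 had a negative log2 fold change (median −0.052), of 11 tested genes of other electron carriers and inner membrane transporters 8 did (median −0.071), and of 14 tested regulators of mitochondrial biogenesis 8 did (median −0.035). None of these 3 lists held a gene with an unadjusted p under 0.05 from limma (0 genes in each). The carrier list holds NDUFAB1, a complex I subunit that the name rule missed. NDUFAB1 had 89.9 and 88.3 FPKM in the pLKO samples and 80.1, 67.0 and 93.6 FPKM after knockdown. The complex I counts, medians and sums given here lack it. One carrier gene, SLC25A6, picked out after its values were seen, differed in a single hairpin sample, with 1.34 and 1.31 FPKM in the pLKO samples, 1.44 in shELK4_1, 1.98 in shELK4_2 and 49.3 in shELK4_3 (adjusted p = 0.546 from limma). CYCS, which encodes the cytochrome c that carries electrons from complex III to complex IV, had 73.6 and 72.6 FPKM in the pLKO samples and 57.9, 60.5 and 70.5 FPKM after knockdown (adjusted p = 0.367 from limma). GABPA, an ETS factor of mitochondrial gene promoters, had 8.47 and 8.27 FPKM in the pLKO samples and 9.81, 11.4 and 8.88 FPKM in the knockdown samples (log2 fold change 0.23, standard error 0.12, adjusted p = 0.386 from limma). Of 26 names listed for mtDNA-encoded subunits, 0 were found in the deposited values, so these subunits were not analysed here.

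The median standard deviation of log2(FPKM + 1) was 0.039 between the controls and 0.11 among the knockdown samples for the 80 members, against 0.045 and 0.14 over all tested genes. Any 2 knockdown samples differed over the 80 genes with a standard deviation of 0.138 to 0.204, and a control and a knockdown sample with one of 0.145 to 0.193.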

How the data were processed

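The authors deposited 1 table of FPKM values per sample, calculated by Cufflinks from poly(A) RNA sequenced on an Illumina HiSeq instrument and scaled to the mapped reads of each sample. The submitters' processing notes list Trimmomatic 0.36, HISAT2 2.0.5, Cufflinks 2.2.1 and HTSeq 0.9.1. The genome build, the annotation and the strand of the libraries are not given in the sources used here. Genes whose exons overlap or that have near-identical copies are therefore uncertain: 21 tested members share over 10% of their 50-base words with another GENCODE gene.

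Groups and replicate numbers came from the sample titles. Of 20030 entries, 4 with a repeated name were dropped. Genes with at least 1 FPKM in at least 2 samples were fitted as log2(FPKM + 1) with limma 3.58.1 in R 4.3.3 (group as the only term, trended empirical Bayes), and p-values were adjusted by Benjamini-Hochberg over all 10780 genes. This scale understates the change of low genes. The fit was tested on simulated data. FPKM hold no counts, so no counting error is given.

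The members, gene lists and motifs were chosen with earlier results of these data known. Named members are, in each complex, those with the highest level and the most positive and negative fold change, up to 12 with the lowest p in each direction, and the SDH, core complex I (1 of them is not reported here), F1 and c-ring genes, CYC1, UQCRFS1, the restricted isoforms with their counterparts and those next to the limit. ATP5IF1, ATP5PB, ATP5PF, COX5B, NDUFA4, NDUFA7, NDUFA13, NDUFB8, UQCRB and UQCRH were named after their values were seen. Alternatives were another pseudocount, FPKM filter, scaling, GC and length correction (lengths for 99.4% of tested genes), group weights, a replicate block and each sample left out.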

Additional observations from a re-analysis of the deposited data

How the results depend on the processing

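Under the 14 alternative settings, no respiratory chain gene passed an adjusted p of 0.05 except NDUFC1 with a weight for each group (1 gene, limma). The median log2 fold change of the 80 genes ran from −0.13 to −0.020 with single samples left out, and the medians of complexes II and IV changed sign with quantile normalization and with GC and length correction. Members with an unadjusted p under 0.05 from limma numbered 1 higher and 6 lower among the 80. With no FPKM filter the higher ones became 4 (also with a pseudocount of 0.1), but there all members above 0 FPKM were counted. At the main pseudocount COX6B2 and COX8C, both with a mean below 1 FPKM, were among these 4. The higher ones became 2 with median-of-ratios scaling, 3 with quantile normalization, 3 with GC and length correction and 2 with group weights. The lower ones became 3 with quantile normalization and 11 with group weights. With each knockdown sample left out in turn they ran from 0 to 3 higher and from 5 (without shELK4 replicate 2) to 11 lower (without shELK4 replicate 3). The shares over all tested genes under these settings are not given, so no background stands beside these counts. Members below both controls, 26 in the main fit (32.5%, against 21.0% of all tested genes), became 30 with median-of-ratios scaling (37.5%, against 21.2%). They became 13 with quantile normalization (16.2%, against 18.8%) and 15 with GC and length correction (18.8%, against 21.3%). With each sample left out, a choice made after seeing the data, they ran from 27 to 46 (33.8% to 57.5%, against 25.8% to 29.6% of all tested genes), and those above both controls from 8 to 17 (10% to 21.2%, against 23.9% to 28.1%). Over all tested genes, 18 had an adjusted p under 0.05. This became 0 with no FPKM filter at either pseudocount, 413 with group weights, and 0 to 95 with each sample left out (95 without shELK4 replicate 2). ELK4 no longer passed with no FPKM filter (adjusted p = 0.114 from limma) or with any 1 sample left out except shELK4 replicate 2. Sign changes were small: with quantile normalization CYC1 became 0.0036, COX7C 0.050 and ATP5F1E 0.047, and with single samples left out NDUFB9 ran from −0.0032 to 0.051, SDHD from −0.026 to 0.10, CYC1 from −0.14 to 0.042 and ATP5F1E from −0.10 to 0.0037. The cause of these changes was not tested.

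The replicate numbers that the titles share name different hairpins and were treated as numbers only. With the replicate block, shELK4 replicate 3 drops out of the contrast. In that fit 0 members were higher and 8 lower at an unadjusted p under 0.05 from limma, with the share over all tested genes not given. Over all tested genes, 22 passed the adjusted limit from limma. Deviations of same-numbered samples from their group means had correlations of 0.078 and 0.023 across genes. The 2 controls deviate by equal and opposite amounts, so the differently numbered pairs were bound to give −0.078 and −0.023.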
